A study of Mus musculus with 6 samples.

Results

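The 10 genes described were the muscle actins Acta1, Acta2 and Actg2, the cytoplasmic actins Actb and Actg1, the actin-binding genes Tagln, Cnn1 and Cnn2, the myosin light chain gene Myl9, and Srf, the gene of serum response factor. They were chosen as named genes of the smooth muscle and serum response factor (SRF) programme, with the tropomyosins left out, on measured differences in these same libraries, so their differences between groups are given as a description and no test is attached to them. They made up 10 of the 43309 genes in the deposited table, and all 10 were found in it. Of these, 9 reached 10 counts in at least 1 library and entered the fit over 16823 genes, and Actg2 did not.

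The libraries were stranded poly(A) RNA-Seq libraries of mouse embryonic stem cells of strain J1 (129SV), grown in serum medium on gelatin without feeder cells. The control group held 3 lines labelled Zbtb24 wild-type (2lox/+), and the other group held 3 lines labelled Zbtb24 knockout (1lox/1lox). Each library came from a separate clone, so every line is 1 clone, and a control line carries a loxP-flanked allele next to a plain allele. The sources used here name no Cre driver and no separate treatment of the groups. Library totals ran from 26987179 to 27754105 counts in the control lines and from 25042261 to 28838924 counts in the lines labelled knockout.

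The targeted gene went against its label. Zbtb24 had 510, 512 and 489 counts in the control libraries and 888, 925 and 1039 counts in the libraries labelled knockout, with a log2 fold change of 0.99 (SE 0.05). A count over the whole gene does not show whether a stretch between loxP sites is missing, so this count cannot settle the genotype. The groups are therefore called control and labelled knockout throughout, and every direction below is that of the libraries labelled knockout relative to control. The fit called 69.5% of the 16823 genes tested at an adjusted p of at most 0.05 (edgeR quasi-likelihood test, Benjamini-Hochberg), of which 35.2% of all genes tested were lower and 34.4% higher, so a call by itself is common in this comparison. The ES cell markers fixed for the check were detected in every library, and their summed level was 5251 to 5359 cpm (counts scaled to a common library size) in the control libraries and 6083 to 6183 cpm in the libraries labelled knockout. Of these 10 markers, 6 were called higher and 4 lower, so the sum does not stand for each of them.

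SRF is a MADS-box transcription factor that binds the CArG box, a short stretch of paired C and G letters around a core of A and T. It works with a pair of partner families. The myocardin-related factors MRTF-A and MRTF-B hold monomeric actin, enter the nucleus when actin assembles into filaments, and switch on genes of the contractile and actin cytoskeleton. The ternary complex factors Elk1, Elk3 and Elk4 respond to ERK signalling and switch on immediate early genes. Smooth muscle actin, transgelin and calponin 1 are the usual markers of differentiated smooth muscle, and they are also made by myofibroblasts and by spreading, adherent cells.

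The stretches of DNA just upstream of the starts of the members are shown first, because they hold the CArG boxes that give the group its name. RefSeq start windows on GRCm38.p6, from 250 bases before to 50 bases after a start, were at hand for 7 of the 10 members, namely Acta1, Acta2, Actg1, Cnn1, Cnn2, Myl9 and Srf. Actb, Actg2 and Tagln had no entry. The search was for CC, then 6 letters that are each A or T, then GG, which reads the same rule on both strands. An exact box stood in 5 of the 7 windows, against 1.63% (535) of all 32851 windows. The members were chosen as genes of the SRF programme, so a share above that of all windows is not an independent result. The boxes lay from -161 to -47 relative to the RefSeq start, and Srf held 2 of them. Each stretch below is printed 5′ to 3′ on the strand of its gene, and capitals mark the exact CArG boxes. A stretch begins 180 bases before the RefSeq start and ends just before that start, or earlier where an annotated GENCODE exon begins. The RefSeq and GENCODE starts can differ. Positions counted from the end of a stretch, or from the gene coordinates given below, therefore need not match.
Acta1, chr8:123894776-123894955, minus strand: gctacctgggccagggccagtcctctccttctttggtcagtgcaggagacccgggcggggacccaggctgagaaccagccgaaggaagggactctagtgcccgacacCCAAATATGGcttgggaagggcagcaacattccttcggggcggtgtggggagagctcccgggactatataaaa
Actg1, chr11:120348543-120348675, minus strand: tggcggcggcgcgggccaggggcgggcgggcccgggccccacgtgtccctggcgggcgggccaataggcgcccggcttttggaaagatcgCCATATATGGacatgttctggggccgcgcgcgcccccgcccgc
Cnn2, chr10:79988420-79988583, plus strand: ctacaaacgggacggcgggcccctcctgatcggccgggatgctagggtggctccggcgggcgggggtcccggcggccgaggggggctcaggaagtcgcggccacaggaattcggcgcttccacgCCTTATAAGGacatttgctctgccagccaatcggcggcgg
Myl9, chr2:156775284-156775419, plus strand: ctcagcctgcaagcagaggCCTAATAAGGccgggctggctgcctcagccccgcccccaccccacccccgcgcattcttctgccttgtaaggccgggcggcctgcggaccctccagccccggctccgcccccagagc
Srf, chr17:46556176-46556342, minus strand: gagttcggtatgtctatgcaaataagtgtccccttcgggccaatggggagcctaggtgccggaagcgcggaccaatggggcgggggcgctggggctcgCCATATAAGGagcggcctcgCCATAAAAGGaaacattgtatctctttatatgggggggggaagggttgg

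Acta2 had no exact box in its window and had 2 boxes that depart from the rule by 1 letter, at -84 to -75 and at -34 to -25. With 1 letter allowed to differ at any position, 6 of the 7 windows and 21.1% of all windows held a box, and with the difference limited to the outer CC or GG, 5 of the 7 and 13.9% did. Both Acta2 boxes lie within an exon of a longer annotated Acta2 transcript, and each is shown in capitals with 10 bases on either side.
Acta2, chr19:34255438-34255467, minus strand: gtgctgaggtCCCTATATGGttgtgttaga
Acta2, chr19:34255388-34255417, minus strand: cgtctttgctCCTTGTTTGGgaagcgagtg

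In the Cnn1 window no box was found under any of these 3 rules, which says only that these letters are not in this window. On either strand, the letters TATAAA stood in the windows of Acta1 and Srf, 2 of the 7, against 13.6% of all windows. The GC box GGGCGG, the letters bound by SP1, stood in 5 of the 7 windows against 35.7%. Those 5 were the windows with an exact CArG box, and Acta2 and Cnn1 had none of either. In the Srf window TATAAA, read on the opposite strand at -38 to -33, lies inside a box with 1 letter changed. In the Acta1 window TATAAA stands at -7 to -2, apart from the boxes of that window. The GENCODE start of Acta1 lies downstream of the RefSeq start used for this position. No GC box overlapped an exact CArG box in these windows. A match describes letters in a reference sequence and not binding in these cells, which was not measured here.

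**Figure D1:**
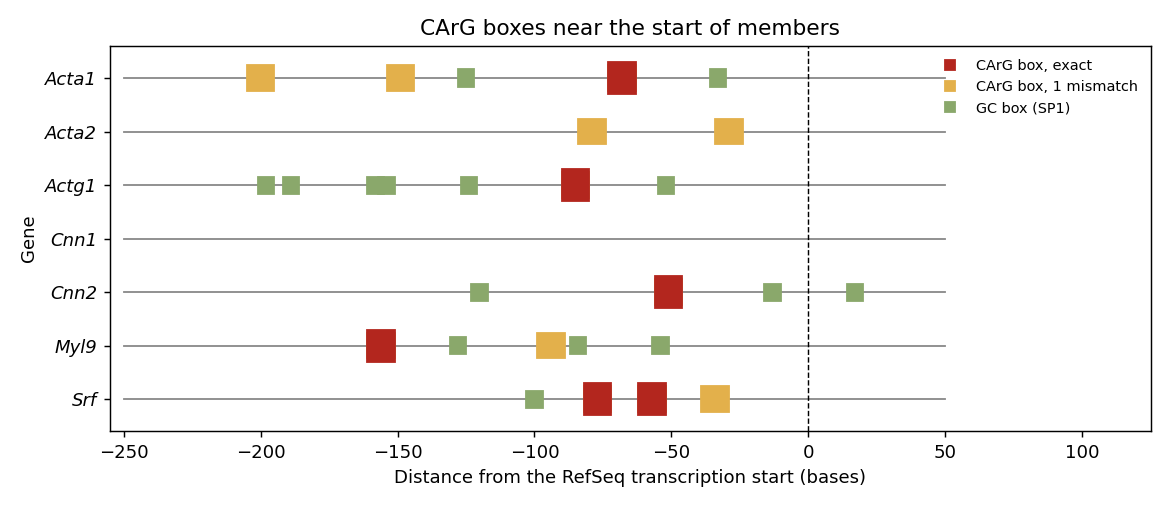
Position of CArG boxes and GC boxes in the 7 RefSeq start windows, as distance from the start in bases (horizontal axis) for each gene (rows). Red blocks are exact CArG boxes, yellow blocks boxes with 1 letter changed, and green blocks the letters GGGCGG. The exact boxes of Acta1, Actg1, Cnn2 and Srf sit within 90 bases before the RefSeq start, and that of Myl9 lies at -161 to -152.

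The clearest contrast among the members was between the muscle actins and the cytoplasmic actins. Muscle and cytoplasmic actins differ in few residues, and ES cells, like other non-muscle cells, build their filaments mainly from the cytoplasmic pair. Acta1 and Acta2 were detected in every control library and came close to the detection limit or to a low level in the libraries labelled knockout, while Actb and Actg1 were among the most abundant transcripts in both groups.

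Acta1 (ENSMUSG00000031972, chr8:123891769-123894751, minus strand) encodes skeletal muscle alpha-actin. It had 608, 637 and 629 counts in the control libraries and 7, 13 and 12 counts in the libraries labelled knockout. The groups lay far apart, and the spread within the labelled knockout libraries was wide relative to their low mean. In cpm the means were 22.6 ± 0.842 (SD, n = 3) and 0.407 ± 0.131, a log2 fold change of -5.78 (SE 0.127), or 1.80% of the control level. Acta1 ranked 32 from the lowest log2 fold change among the 16823 genes tested.

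Acta2 (ENSMUSG00000035783, chr19:34241090-34255590, minus strand) encodes smooth muscle alpha-actin, the standard marker of smooth muscle and myofibroblasts. It had 781, 749 and 803 counts in the control libraries and 32, 36 and 43 counts in the libraries labelled knockout. All 3 control libraries were above every library labelled knockout. The means were 28.1 ± 1.04 and 1.40 ± 0.157 cpm (SD, n = 3), a log2 fold change of -4.32 (SE 0.0916), 20.01-fold higher in control, and rank 122 from the lowest.

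Actg2 (ENSMUSG00000059430, chr6:83512905-83536265, minus strand) encodes the gamma-actin of visceral smooth muscle. It had 2, 4 and 9 counts in the control libraries and 4, 3 and 3 counts in the libraries labelled knockout, so the groups overlapped and the gene stayed below the filter. The sums were 15 counts (exact Poisson 95% interval 8.40 to 24.7) and 10 counts (4.795 to 18.4), and these intervals cover counting error only. A difference was not detectable at this depth.

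Actb (ENSMUSG00000029580, chr5:142903115-142906754, minus strand) encodes cytoplasmic beta-actin, and it had 73417, 71233 and 70996 counts in control and 61265, 61411 and 71813 in the libraries labelled knockout. Scaled for library size the means were 2596 ± 11.9 and 2461 ± 103 cpm (SD, n = 3), a log2 fold change of -0.08 (SE 0.0225). The raw counts overlapped between groups and the scaled values did not. Actg1 (ENSMUSG00000062825, chr11:120345690-120348542, minus strand), the cytoplasmic gamma-actin gene, had 70829, 70249 and 70368 counts in control and 51674, 51196 and 57685 in the libraries labelled knockout. Its means were 2546 ± 24.9 and 2034 ± 51.1 cpm, a log2 fold change of -0.32 (SE 0.0212).

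The actins are alike in their coding sequence, which bears on how fragments are assigned. Identity between the longest open reading frames of the 5 member actins and cardiac Actc1 ran from 81.9% to 88.7%, with Actb and Actg1 the most alike pair, and Acta1 and Acta2 shared 85.4%. The deposited counts left out fragments that mapped to several locations. Of the 76-base stretches of the longest transcript of each gene, 53.9% of Actg1 were also found in transcripts of other genes, mostly in Gm12715. That share was 2.49% in Actb, 0.365% in Acta1 and 0 in the other 7 members. Gm12715, annotated as a processed pseudogene, itself had 437, 449 and 450 counts in control and 366, 349 and 434 in the libraries labelled knockout, so the Actg1 level is less certain than the others.

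The balance within the actins was compared per transcript length, as fragments per kilobase of the longest transcript, scaled to library size (FPKM). The muscle actins Acta1, Acta2, Actg2 and Actc1 together made 1.16% ± 0.030 of all actin FPKM in the control libraries, with a range of 1.13% to 1.19%. In the libraries labelled knockout they made 0.0578% ± 0.0062, with a range of 0.0531% to 0.0648%. Summed muscle actin FPKM was 31.1 ± 0.881 in control and 1.35 ± 0.175 in the libraries labelled knockout, and summed cytoplasmic actin FPKM was 2656 ± 6.65 and 2324 ± 76.6 (SD, n = 3 each). Nearly all actin message was cytoplasmic in both groups, and the muscle share differed by more than its spread. The cytoplasmic sum can be too low, because multi-location fragments of Actg1 were left out.

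**Figure D2:**
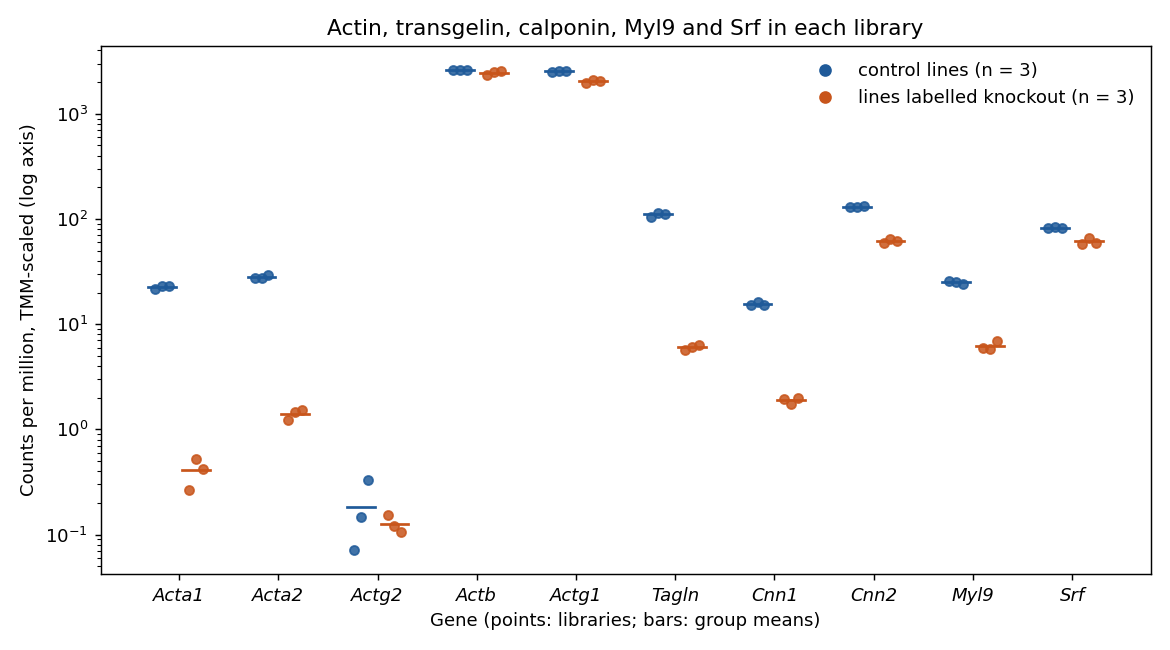
Level of the 10 members in each of the 6 libraries, in TMM-scaled cpm on a log axis. Points are libraries (blue control, orange labelled knockout) and bars are group means. The groups are separate for every gene but Actg2, and the gap is widest for Acta1 (22.6 against 0.407 cpm) and narrow for Actb (2596 against 2461 cpm).

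Among the actin-binding and contractile members, the 2 smooth muscle markers Tagln and Cnn1 differed most. Tagln (ENSMUSG00000032085, chr9:45929619-45936058, minus strand) encodes transgelin, also called SM22-alpha, which binds and bundles actin filaments. It had 2946, 3156 and 3095 counts in the control libraries and 150, 148 and 179 counts in the libraries labelled knockout. The means were 111 ± 5.36 and 6.03 ± 0.299 cpm (SD, n = 3), a log2 fold change of -4.20 (SE 0.053) and 18.4-fold higher in control. No library of either group came near the other group. The gene overlaps the end of Pcsk7 on the opposite strand, and Pcsk7 had a log2 fold change of 0.11 (SE 0.0545, adjusted p = 0.0662). The authors' counting used strand, which keeps such neighbours apart.

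Cnn1 (ENSMUSG00000001349, chr9:22099216-22109630, plus strand) encodes basic calponin, which slows actomyosin in smooth muscle. It had 424, 442 and 415 counts in control and 51, 43 and 56 in the libraries labelled knockout, with means of 15.4 ± 0.574 and 1.89 ± 0.129 cpm. The log2 fold change was -3.02 (SE 0.0991), and the groups did not overlap. Cnn2 (ENSMUSG00000004665, chr10:79988584-79996062, plus strand) encodes the calponin of many non-muscle cells. It had 3638, 3572 and 3678 counts in control and 1540, 1584 and 1729 in the libraries labelled knockout, with means of 131 ± 2.52 and 61.5 ± 2.70 cpm and a log2 fold change of -1.09 (SE 0.032). Both calponins were higher in all 3 control libraries than in any library labelled knockout, Cnn1 by 8.14-fold and Cnn2 by 2.13-fold.

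Myl9 (ENSMUSG00000067818, chr2:156775420-156781658, plus strand) encodes a regulatory light chain of smooth muscle and non-muscle myosin II. It had 717, 694 and 663 counts in control and 154, 144 and 196 in the libraries labelled knockout, with means of 24.96 ± 0.713 and 6.23 ± 0.618 cpm (SD, n = 3). The log2 fold change was -1.996 (SE 0.0685), which is the median of the 9 fitted members, and the control libraries were all above the others.

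Srf itself (ENSMUSG00000015605, chr17:46548329-46556175, minus strand) differed far less than the muscle genes. It had 2287, 2321 and 2250 counts in control and 1524, 1634 and 1675 counts in the libraries labelled knockout. The means were 82.6 ± 1.68 and 61.4 ± 4.37 cpm (SD, n = 3), a log2 fold change of -0.43 (SE 0.0363), so its message in the libraries labelled knockout was lower by a factor of 1.35. The groups did not overlap.

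Read together, all 9 fitted members were lower in the libraries labelled knockout with groups that did not overlap, against 36.2% of all genes tested. Of the 9, 6 had a log2 fold change of -1 or less as well as a call, against 11.8% of all genes tested. The members were chosen from this contrast, so nothing is read from these counts. Their median log2 fold change was -1.996 and that of all genes tested was -0.000363. Leaving out each library in turn moved the log2 fold change of Acta1 between -5.99 and -5.56 and that of Actb between -0.10 and -0.04, and the other 7 moved by less than Acta1. These libraries are of bulk RNA, so fewer cells that make a transcript and less of it per cell cannot be told apart.

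Within a group the lines were alike. The largest distance of a fitted member from its group mean was 0.08 on the log2 scale in the control libraries, for Tagln, and 0.55 in the libraries labelled knockout, for Acta1 at 7 to 13 counts. The members did not share a place in the genome. They lie on chromosomes 2, 5, 6, 8, 9, 10, 11, 17 and 19, and the median log2 fold change of the other genes in the 20 Mb window of each ranged from -0.07 to 0.04. Window and chromosome medians here and below use only fitted genes averaging 10 counts or more.

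Levels of different genes were compared as FPKM. In the control libraries the order was Actb at 1352, Actg1 at 1304, Tagln at 69.4, Cnn2 at 53.3, Srf at 31.6, Myl9 at 22.1, Acta1 at 15.6, Acta2 at 13.8, Cnn1 at 6.48 and Actg2 at 0.136 FPKM. No neighbours in that order overlapped over the 3 libraries. The order of Actb and Actg1 is not settled by this, in either group. Of the 76-base stretches of Actg1, 53.9% occur in other transcripts, and leaving out multi-location fragments can lower its level. In the libraries labelled knockout the order was Actb at 1282, Actg1 at 1042, Cnn2 at 25.01, Srf at 23.5, Myl9 at 5.52, Tagln at 3.78, Cnn1 at 0.796, Acta2 at 0.690, Acta1 at 0.282 and Actg2 at 0.0953 FPKM. Here Cnn2 and Srf overlapped, and so did Cnn1 and Acta2. Tagln stood above Cnn2, Srf and Myl9 in control and below all 3 in the libraries labelled knockout.

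Among 21461 protein-coding genes ranked by FPKM, Tagln stood at percentile 95.6 in control and 61.3 in the libraries labelled knockout. Acta1 stood at 80.4 and 41.4, Acta2 at 78.7 and 47.3, Cnn1 at 67.7 and 48.1, and Myl9 at 85.3 and 65.9. Cnn2 and Srf kept a place in the upper part of the ranking, with 94.0 and 86.5 for Cnn2 and 89.2 and 85.8 for Srf. Both cytoplasmic actins were at percentile 99.9 in both groups.

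The family relatives of the members mostly differed little, and their directions were mixed. Of 12 relatives 11 were tested, with 4 called lower, 4 higher and 3 not called, close to the 35.2% lower and 34.4% higher of all genes tested. Their median log2 fold change of 0.03 turned to -0.02 without the filter and with plain library totals and to -0.07 without chromosome 1. Cardiac Actc1 was the relative with the lowest value, with 69, 58 and 64 counts in control and 11, 13 and 8 in the libraries labelled knockout (log2 fold change -2.49, SE 0.232, adjusted p = 2.07e-13). Among the transgelins, Tagln2 at 0.03 and Tagln3 at -0.20 were not called, beside -4.20 for Tagln. Cnn3, the acidic calponin, was called higher with 0.14, beside the lower values of Cnn1 and Cnn2.

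The other myosin light chains also lay near 0. Myl12a and Myl6 were called lower with -0.22 and -0.17, Myl6b was called higher with 0.20, and Myl12b at 0.05 was not called, beside -1.996 for Myl9. Myl6 lost its call with DESeq2, and its groups overlapped. Myl6b lost its call with DESeq2, with library totals (0.15), and without control replicate 3 (0.14) or labelled knockout replicate 2 (0.19). The actin-related genes Actr2 and Actr3, of the Arp2/3 complex that seeds branched filaments, were called higher with 0.10 and 0.46, and Actl6a, of chromatin remodelling complexes, was called lower with -0.09. Actl6b had at most 2 counts in a library and was not tested. Actr3 and Tagln2 lie on chromosome 1, where the median log2 fold change of the 980 genes averaging 10 counts or more was 0.50.

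**Figure D3:**
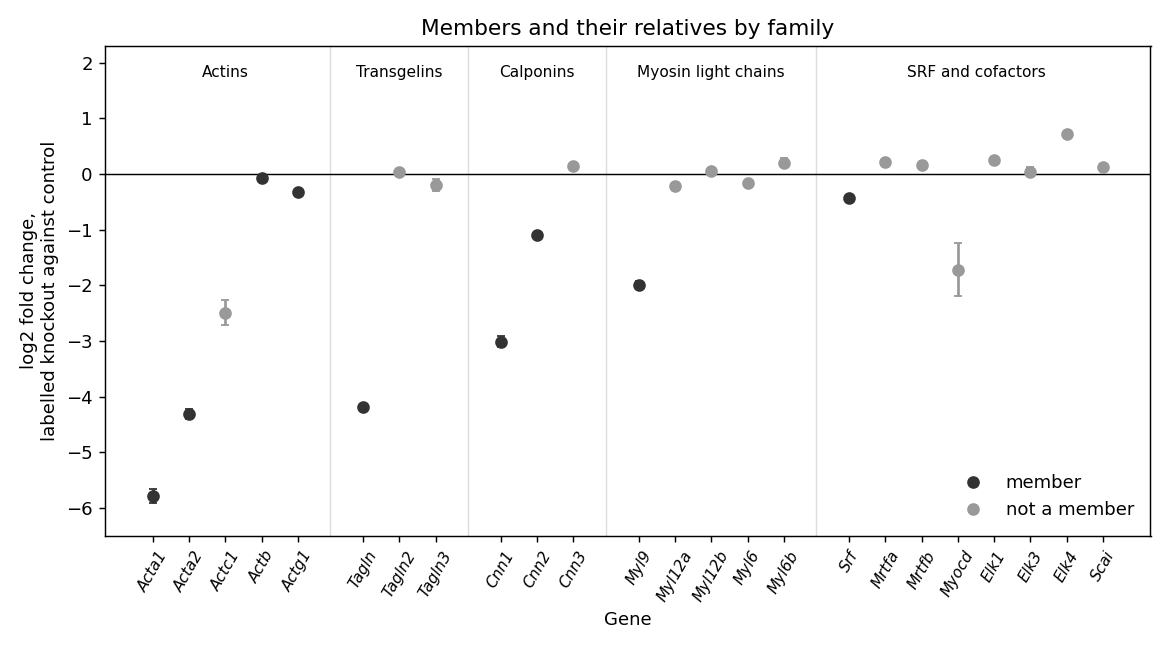
Log2 fold change of the libraries labelled knockout against control (vertical axis, error bars SE of the fit) for members (dark) and relatives or partners (grey), by family. The members Acta1, Acta2, Tagln, Cnn1 and Myl9 lie from -5.78 to -1.996, and all grey points lie between -0.22 and 0.73, except Actc1 at -2.49 and Myocd at -1.72.

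The partners of SRF were mostly called higher, in contrast to the lower values of the muscle genes, and the weakly expressed Myocd was called lower. Of the 8 cofactors 7 were tested, and 5 were called higher, 1 lower and 1 not called, with a median log2 fold change of 0.16. Among all genes tested 34.4% were called higher and 35.2% lower. Mrtfa had 1036, 1080 and 1049 counts in control and 1208, 1076 and 1187 in the libraries labelled knockout (log2 fold change 0.21, SE 0.0419, adjusted p = 2.51e-05). Mrtfb had a log2 fold change of 0.16 (SE 0.0445, adjusted p = 0.00104). Scai, a suppressor of MRTF activity, had 0.12 (SE 0.0496, adjusted p = 0.0351), with groups that overlapped. It lost its call with DESeq2 (0.11), with library totals (0.07), with a filter of at least 100 counts in 3 libraries (0.09), and without control replicate 2 (0.11) or 3 (0.09) or labelled knockout replicate 2 (0.08) or 3 (0.12), which left 4 cofactors called higher under each of these settings.

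Among the ternary complex factors, Elk1 had a log2 fold change of 0.25 (SE 0.0448, adjusted p = 3.86e-06), Elk4 had 0.73 (SE 0.0534, adjusted p = 6.99e-17) and Elk3 had 0.04 (SE 0.0858, adjusted p = 0.691). Elk4 lies on chromosome 1. Myocd encodes myocardin, the strongest SRF coactivator of smooth and cardiac muscle, and had 10, 15 and 14 counts in control and 3, 3 and 5 in the libraries labelled knockout (log2 fold change -1.72, SE 0.473, adjusted p = 0.00129). Abra had at most 6 counts in a library and was not tested. Myocd and Abra were at low counts in both groups.

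Other genes of the same programme were taken from lists, which like the members were set with earlier results known. Of 19 other smooth muscle contractile genes, all tested, 13 were called lower, 4 higher and 2 were not called. The shares over all genes tested were 35.2% lower and 34.4% higher. The median log2 fold change of the list was -0.96, beside -0.000363 over all genes tested. Of the 19, 9 were called with a log2 fold change of -1 or less, against 11.8% of all genes tested. This list shares Myocd with the cofactors and Actc1, Cnn3, Tagln2 and Myl6 with the relatives. Cald1, which encodes the actin-binding caldesmon, had 2778, 2741 and 2841 counts in control and 817, 723 and 843 in the libraries labelled knockout (log2 fold change -1.74, SE 0.0368). Pdlim7, a PDZ-LIM scaffold on actin fibres, had -1.40, the intermediate filament gene Synm had -0.96 and smoothelin (Smtn) had -0.74.

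Desmin (Des), the muscle intermediate filament gene, went the other way, with 301, 301 and 348 counts in control and 452, 424 and 489 in the libraries labelled knockout (log2 fold change 0.60, SE 0.0654). Des lies on chromosome 1, which had a median of 0.50, and the part of the chromosome in its value was not tested. Smooth muscle myosin heavy chain, Myh11, which marks the mature state, had 11 to 26 counts in control and 19 to 28 in the libraries labelled knockout and was not called. It was named after its values were seen.

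Of 24 cytoskeletal genes known as MRTF-SRF targets, all tested, 20 were called lower, 2 higher and 2 were not called. Their median log2 fold change was -0.46, and 7 were called with -1 or less. Over all genes tested the shares were 35.2% lower, 34.4% higher and 11.8% called with -1 or less. Tgfb1i1, which encodes the focal adhesion protein Hic-5, had 253, 281 and 263 counts in control and 14, 16 and 23 in the libraries labelled knockout (log2 fold change -3.83, SE 0.144). Ccn2 and Ccn1, matrix-associated signalling genes that also respond to YAP, had -3.15 (SE 0.0443) and -2.30 (SE 0.0478). Zyxin (Zyx), of focal adhesions and stress fibres, had -1.40, and filamin C (Flnc) had -0.998. The 2 called higher were Arpc4 with 0.52 and Wdr1 with 0.07. The other genes in the 20 Mb window of Arpc4 on chromosome 6 had a median of 0.45. Wdr1 lost its call with DESeq2, with library totals (0.02), with at least 100 counts in 3 libraries (0.04), and without control replicate 1 (0.05) or labelled knockout replicate 2 (0.05) or 3 (0.06).

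The 2 lists share Csrp1 and Pdlim7, and together their 41 genes had 31 called lower and 6 higher with a median of -0.53. Their values were spread from -3.83 to 0.70, and the members Acta1, Acta2 and Tagln lay below all of them.

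**Figure D4:**
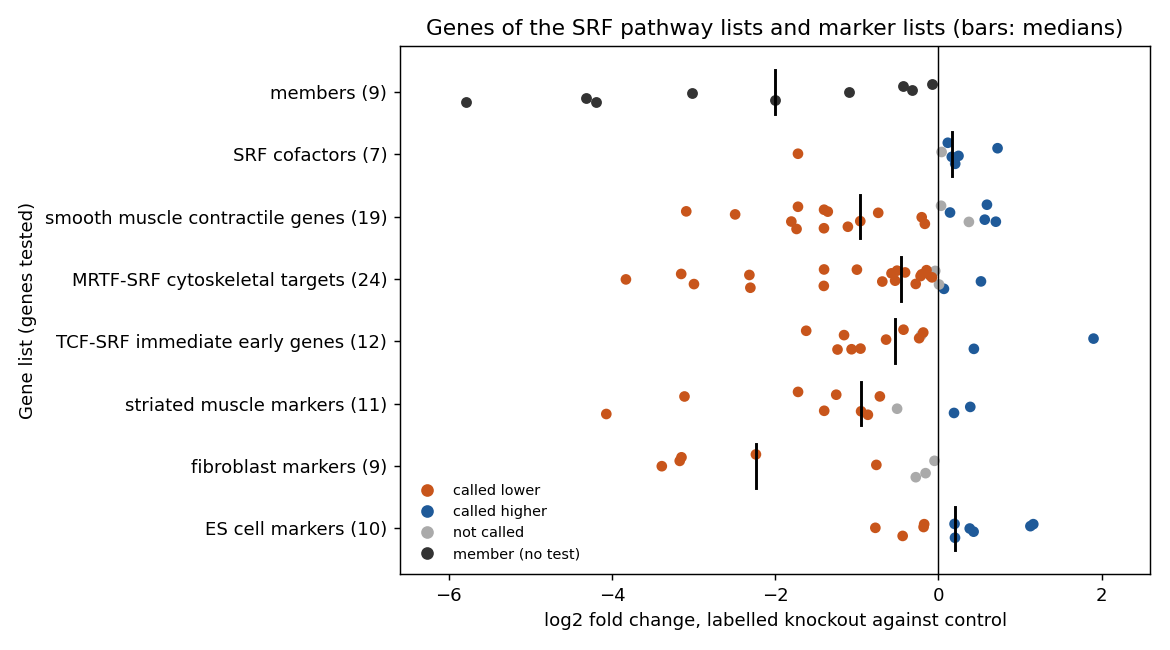
Log2 fold change (horizontal axis) of single genes in each list (rows, with the number tested). Orange points were called lower, blue higher and grey not called, dark points are the 9 fitted members, and black bars are medians. Postn, at 0 counts in every library labelled knockout, is not drawn. The contractile and MRTF-SRF target lists have medians of -0.96 and -0.46, and the cofactors have a median of 0.16.

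Immediate early genes of the ternary complex factors were also mostly called lower. Of 12, all tested, 9 were called lower, 2 higher and 1 was not called, against 35.2% lower and 34.4% higher over all genes tested. Their median was -0.53. With a filter of at least 100 counts in 3 libraries 5 were called lower with a median of -0.26. Klf4, also a pluripotency factor, had 1911, 1852 and 1859 counts in control and 6588, 6454 and 6908 in the libraries labelled knockout (log2 fold change 1.90, SE 0.0295). Egr1 was called higher with 0.44. Ier5 had -1.24, Junb -0.95, Mcl1 -0.43 and Nr4a1 -0.24, all called lower. Ier5 lies on chromosome 1.

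Markers of other cell types that carry these genes moved in part with the members. The counts of calls below stand beside 35.2% lower and 34.4% higher over all genes tested. Of 14 striated muscle markers 11 were tested, with 8 called lower, 2 higher and 1 not called, and their summed level was 73.6 to 77.8 cpm in control and 46.7 to 48.1 cpm in the libraries labelled knockout. Of those called lower, the weakly expressed Tnnt2 and Tnnc1 lost their calls with DESeq2 and in some fits with a library left out. The groups of Tnnc1 overlapped. Tnnt2 and Tnnc1 were named for this, after their values were seen. Myf5, a myogenic factor gene, was at 0 in every library. The myogenic factor gene Myog had 7, 7 and 5 counts in control and 2, 2 and 7 in the libraries labelled knockout. Myod1, another, had 6, 4 and 2 counts in control and 1, 1 and 1 in the libraries labelled knockout. Both were too low to be tested and were named after their values were seen. Of 12 fibroblast markers 9 were tested, with 6 called lower, none higher and 3 not called, and their summed level was 62.9 to 65.4 and 15.0 to 15.9 cpm. Lum was at 0 in every library, and Fap had 0 to 1 counts. Col1a1, at 1095, 1126 and 1188 counts in control and 92, 110 and 107 in the libraries labelled knockout, was the most abundant of this list in the control libraries. The part of such cells in the members' values was not tested.

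The genes beside the members went in both directions. The 21 nearest tested protein-coding neighbours had a median log2 fold change of -0.06, with a range from -1.33 to 0.85. Of them, 9 were called lower and 6 higher, beside 35.2% lower and 34.4% higher over all genes tested. Nup133, 2.37 kb from Acta1, was called higher with 0.32, and Ccsap on its other side was called lower with -0.46. Stambpl1, 0.757 kb from Acta2 on the opposite strand, had -0.11 and was not called. Fas, on the other side of Acta2, had -1.33 at mean levels of 0.518 and 0.195 cpm, and was the only neighbour at -1 or less.

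Beside Tagln, Sidt2 had a log2 fold change of -0.42 and Rnf214 had 0.27. Beside Cnn1, Ecsit had -0.38 and Elof1 had 0.17. Abca7, 0.432 kb from Cnn2 on the same strand, had -0.72, and Tmem259 on the other side had 0.02. Beside Myl9, Dlgap4 had -0.14 and Tgif2 had -0.34. Srf lay between Cul9, with the highest value of the neighbours at 0.85, and Ptk7 with -0.98. Around the cytoplasmic actins the values ran from -0.36 for Fscn1, beside Actb, to 0.19 for Bahcc1, beside Actg1, and around Actg2 they were 0.17 for Dguok and 0.11 for Stambp.

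The genes whose levels over the 6 libraries were most like Acta2 were sought among 10708 protein-coding genes averaging 100 counts or more, as the root mean square distance of their log2 levels from the control mean. The nearest were the simple epithelial keratin genes Krt8 and Krt18, at distances of 0.0858 and 0.104, then the member Tagln at 0.116, Gm8300 at 0.152 and 3830417A13Rik at 0.197. The nearest to Tagln were Krt18 at 0.0385, Acta2 at 0.116, Gbp2 at 0.145, Krt8 at 0.172 and Slc15a2 at 0.182. Krt18 had 3202, 3387 and 3249 counts in control and 153, 161 and 198 in the libraries labelled knockout, and its log2 fold change was -4.19 beside -4.20 for Tagln. With 2 groups of 3 libraries such distances mostly reflect the size of the difference between groups, and they are given as a description.

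An exact CArG box was also looked for in the start windows of the lists. It stood in 6 of 21 windows of the MRTF-SRF targets, namely Arpc4, Fhl1, Fhl2, Filip1l, Lima1 and Vcl, in 2 of 16 of the contractile genes, namely Actc1 and Myl6, and in 1 of 9 of the immediate early genes, namely Egr2. It stood in 0 of 6 windows of the cofactors. The share over all windows was 1.63%. Lists of SRF targets were chosen as such, so a higher share in them is not an independent result. Among all genes tested 35.2% were called lower. In the contractile and MRTF-SRF target lists together 31 of 41 genes were called lower, with or without a box. Of the 9 list genes with a box, 7 were called lower, 1 higher and 1 was not called, so nothing is read from this count. The log2 fold changes of those called lower were -2.99 for Filip1l, -2.49 for Actc1, -2.32 for Fhl2, -1.06 for Egr2, -0.51 for Fhl1, -0.17 for Myl6 and -0.10 for Vcl, and Myl6 lost its call with DESeq2. Egr2 lost its call with DESeq2 (-1.08), and without control replicate 1 (-0.80) or labelled knockout replicate 2 (-0.99) or 3 (-1.01). Lima1 at -0.04 was not called, and Arpc4, in the window with a median of 0.45, had 0.52. Fhl2 lies on chromosome 1. Among the members with a box the log2 fold change ran from -5.78 in Acta1 to -0.32 in Actg1, and Cnn1, with no box in its window, had -3.02. These genes were named for their boxes and after their values were seen.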

How the data were processed

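Poly(A) RNA of 3 control lines and 3 lines labelled Zbtb24 knockout was measured. The authors removed ribosomal reads with Bowtie2 2.1.0, mapped pairs with TopHat 2.0.10 to mm10 and counted fragments per GENCODE M4 gene with htseq-count 0.6.1, with strand and in union mode. The deposited values are raw counts, and antisense, multi-gene and multi-location fragments are left out of them, which lowers the counts of genes with close copies. Genes that reached 10 counts in any library were fitted with edgeR 4.0.16 (R 4.3.3, glmQLFit, glmQLFTest, TMM, no covariate) with Benjamini-Hochberg adjustment at 0.05, and the fit was tested on simulated data. Gene IDs were matched to GENCODE M21, which gave symbols to 42425 of 43309 genes. FPKM used TMM-scaled totals and the longest M21 transcript. Profiles used an offset of 0.01 cpm.

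The members and gene lists were chosen with earlier results of these data known. Beside members, Zbtb24, cofactors, relatives and neighbours, the genes named were at most 6 per list, those with the largest absolute log2 fold change among called genes averaging 100 counts or more, the 5 nearest profiles, and markers at 0 or at the highest level. A gene that this rule names and a gene list are not reported here. Promoter windows came from RefSeq, GRCm38.p6. Alternatives were DESeq2 1.42.0, other scalings and filters, no chromosome 1 genes, a replicate block, each library left out and total exon length. A minimum fold and a CArG box with any 1 letter changed were added after seeing the data. Replicates are separate lines per the study. The p-values measure the spread between libraries, which is that between lines only if this holds. The closest pair of libraries, control 2 and 3, differed beyond counting error (chi-square p = 3.57e-34, mean squared deviation 1.14), so none was counted as a library deposited again. This covers counting error only and does not show that the lines are separate.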

Additional observations from a re-analysis of the deposited data

How the results depend on the processing

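Of 117 values of members' log2 fold changes under the alternatives, 115 moved by less than the spread between lines, 2 moved by more and none changed sign. Their median was -2.09 without labelled knockout replicate 3, and -2.09 to -1.95 over all libraries left out in turn. Among list genes, 44 of 1270 values lost the threshold and none changed sign. The number of genes called, 11697, became 10326 with DESeq2, 11637 with library totals, 12073 without a filter, 8772 with at least 100 counts in 3 libraries, 10891 without chromosome 1 and 11059 to 11304 with a library left out. Requiring a log2 fold change of -1 or less left 1988 genes lower. MRTF-SRF targets called higher became 1 with DESeq2, with library totals and with at least 100 counts in 3 libraries, and 1 to 2 with a library left out (1 without control replicate 1, labelled knockout replicate 2 or labelled knockout replicate 3). With at least 100 counts in 3 libraries, 0 cofactors and 5 immediate early genes were called lower, and the medians were -0.76 for contractile genes and -0.26 for immediate early genes, since weak genes left. Without chromosome 1 these medians were -1.09 and -0.41. The median of the relatives turned from 0.03 to -0.0151 with library totals, -0.0234 without a filter and -0.0723 without chromosome 1. With total exon length the muscle actins made 1.48% of actin FPKM in control and 0.0735% in the libraries labelled knockout.

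Same-numbered lines were not paired, with correlations of 0.00458, 0.0742 and 0.0113 between their deviations from the group means. A replicate block gave 11801 calls and a members' median of -1.996. Depth limits Actg2, Myocd and Abra, and Acta1 in the libraries labelled knockout.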

Other observations

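Within the marker lists, the values of the better expressed genes were these. Among striated muscle markers, Myh6, a cardiac myosin heavy chain gene, had 508, 504 and 470 counts in control and 181, 167 and 186 counts in the lines labelled knockout (log2 fold change -1.40, SE 0.0708). The giant sarcomere gene Ttn was called lower with -0.72, while cardiac troponin I, Tnni3, and alpha-actinin 2, Actn2, were called higher with 0.39 and 0.19. Actn2 lost its call with DESeq2 (0.19), with library totals (0.14), and without control replicate 1 (0.16) or labelled knockout replicate 1 (0.13). Among fibroblast markers the collagen I genes Col1a1 and Col1a2 were called lower with -3.39 (SE 0.0707) and -3.15 (SE 0.143), and the surface antigen gene Thy1 with -0.76. The receptor genes Pdgfra and Pdgfrb, at 24 to 46 and 80 to 114 counts in control, were not called, with -0.05 and -0.16, and were named after their values were seen. Of the ES cell markers, Nanog and Esrrb were called higher with 1.13 and 1.16, and Zfp42 lower with -0.77. The other genes in the 20 Mb window of Nanog on chromosome 6 had a median log2 fold change of 0.59, and those in the window of Zfp42 on chromosome 8 had -0.32.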
